A study of Mus musculus with 23 samples.

Results

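The response of sorted tumour cells to exercise was compared between the 2 compartments of Met1-iRFP breast tumours in FVB mice, using all 23 of the 23 libraries of the study. Met-1 cells are a mouse mammary carcinoma line, and iRFP is the infrared fluorescent protein by which they were sorted. Cells sorted as iRFP-positive were labelled cancer cells and cells sorted as iRFP-negative were labelled cells of the tumour microenvironment (TME), from mice that were exercised or sedentary. The groups were 8 libraries of cancer cells from sedentary mice, 7 of cancer cells from exercised mice, 4 of TME cells from sedentary mice and 4 of TME cells from exercised mice. All mice bore the same kind of tumour, so that no group was free of tumour. The labels give neither the exercise regimen nor the age of the mice, nor whether each library came from its own mouse, and p-values therefore measure the spread between libraries. The quantity examined was the exercise effect in TME cells minus the exercise effect in cancer cells, each as a log2 fold change of exercised over sedentary libraries. A positive difference means a higher effect in TME cells and a negative difference a lower one, and values after ± are standard errors unless an SD is named.

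The TME sort collects whatever does not carry the fluorescent protein: leukocytes, endothelium, pericytes and fibroblasts, and any tumour cell that has lost the marker. Interferon-gamma, made by T and NK cells, acts on leukocytes and tumour cells alike through the kinases JAK1 and JAK2, and induces MHC genes, guanylate-binding proteins and the checkpoint ligand PD-L1. NF-kB, activated by cytokines and microbial products, drives inflammatory cytokine genes. A transcript in a bulk sort can differ because there are more cells that make it or because each cell holds more of it, and these cannot be told apart here.

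Total counts were 15924340 to 25563245 in sedentary and 20073700 to 25526059 in exercised cancer cells, and 16307545 to 35958441 in sedentary and 22682216 to 37388479 in exercised TME cells. The summed level of 14 pan-leukocyte markers in CPM, counts scaled to the library total, was 44.3 to 88.4 in sedentary cancer cells, 67.6 to 146 in exercised cancer cells, 452 to 568 in sedentary TME cells and 325 to 1845 in exercised TME cells. The summed level of 18 epithelial markers overlapped between the sorts, with medians of 533 and 446 CPM in sedentary and exercised cancer cells and 603 and 433 in sedentary and exercised TME cells. Libraries stood apart within the TME groups. The mean log2 CPM of the pan-leukocyte markers was 6.42 and 6.45 in the exercised TME libraries 8 and 9, and 3.96 to 4.77 in the other 6 TME libraries. Among the cancer libraries the exercised library 8 had the highest level, 2.78. Mitochondrially encoded transcripts took 42.2% of the counts in sedentary TME library 4, which also had the highest endothelial level (5.41 log2 CPM, where the other 7 had 2.45 to 3.83), and 14.5% in sedentary TME library 6. Where leaving out these libraries turned a difference or list median named here or moved it by over 1.5 times, the value without them is mostly given beside it.

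**Figure D1:**
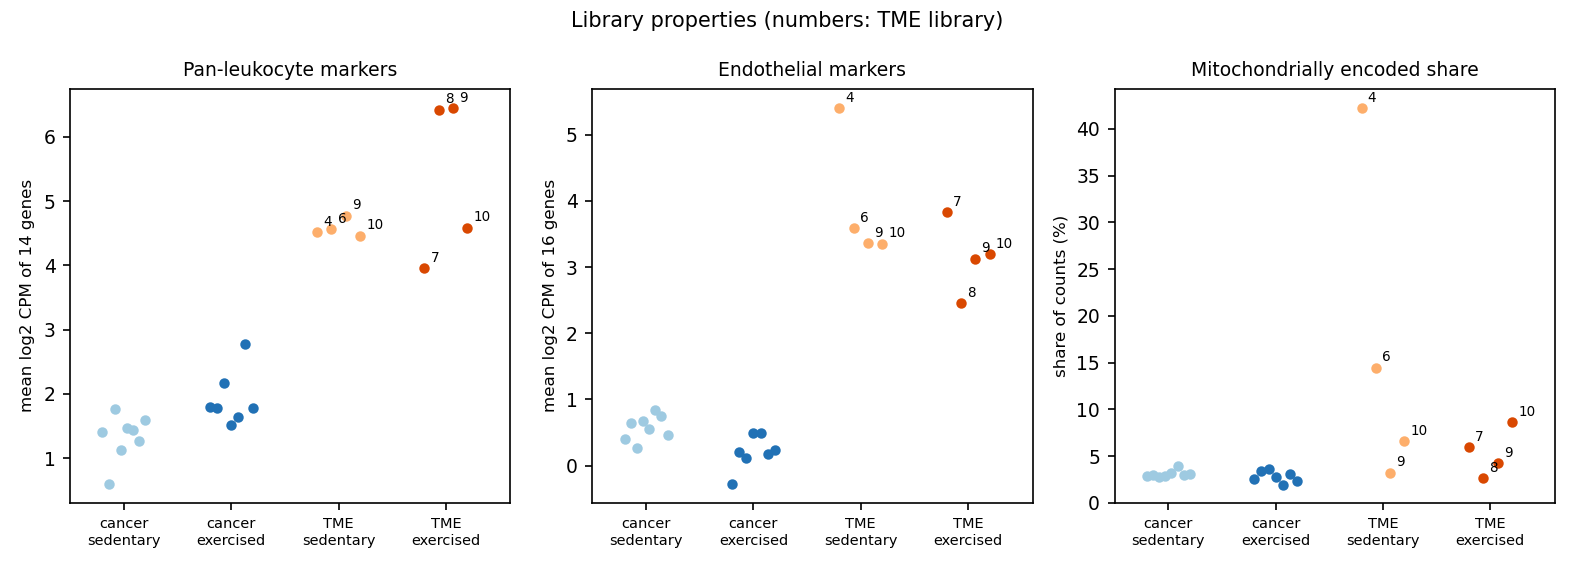
Each point is a library; the vertical axes show the mean log2 CPM of the pan-leukocyte markers (left), that of the endothelial markers (middle) and the share of counts from mitochondrially encoded genes in percent (right), in the 4 groups, with TME libraries numbered. The exercised TME libraries 8 and 9 lie above the other TME libraries on the left, and the sedentary TME library 4 lies above them in the middle and on the right.

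No gene had an exercise effect that differed between the compartments at an adjusted p of 0.05. edgeR called 0 of 17503 genes as higher in TME cells (0%) and 0 as lower (0%), with a smallest adjusted p of 0.237. At an unadjusted p under 0.05 there were 731 genes with a higher effect in TME cells (4.18%) and 585 with a lower one (3.34%), 1316 in all where 875 would be expected from uniform p-values. With the mitochondrially encoded genes removed before scaling these counts were 944 and 402, so that 70.1% instead of 55.5% were higher. The balance turned to the lower side in the 14 libraries whose number occurs in both sorts (658 and 882) and with the replicate number as a block (605 and 903), and without the exercised TME libraries 8 and 9 the counts were 454 and 466. DESeq2 called 1 gene in each direction, limma voom called 19 as higher and 17 as lower, and without the exercised TME library 7 edgeR called 49 as higher and 3 as lower. The median difference over all genes was 0.01, with 51.7% of genes above 0 and 48.3% below. Effects were above 0 for 53.8% and below 0 for 46.2% of genes in TME cells, and above 0 for 54.6% and below 0 for 45.4% in cancer cells. Within TME cells 0 genes passed in either direction (0%), with 1647 higher (9.41%) and 838 lower (4.79%) at an unadjusted p under 0.05. DESeq2 called 307 genes there and limma voom 1470, and edgeR called 952 without the exercised TME library 7 and 183 without exercised library 10. Within cancer cells 0 passed as higher and 1 as lower (0.00571%), with 1125 higher (6.43%) and 621 lower (3.55%) at an unadjusted p under 0.05. The gene called was 1110038B12Rik, a transcript named only by its clone, with -0.54 ± 0.09 in cancer cells (adjusted p = 0.0381) and -0.29 ± 0.12 in TME cells, a difference of 0.25 ± 0.15.

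Most genes with an unadjusted p under 0.05 in both compartments had the same sign in both. Of 302 such genes, 204 were higher under exercise in both sorts and 71 were lower in both. The estimate was larger in TME cells for 173 of the 204 and 60 of the 71. With the larger standard errors in TME cells, an estimate must be larger there to reach this p. These counts therefore follow in part from the choice. The other 27 of the 302 had opposite signs, 9 being higher in TME and lower in cancer cells and 18 lower in TME and higher in cancer cells. Over all genes tested 7081 (40.5%) had estimates of opposite sign. Across genes, which are not independent replicates, the correlation of both effects was 0.22. The median standard error of an effect was 0.21 in TME cells and 0.15 in cancer cells, against median absolute effects of 0.21 and 0.14, so that many signs lie within the error. The count of 27 was 105 by limma voom, 96 without a filter on low counts, 56 without both sedentary TME libraries 4 and 6, and 15 to 56 when each library was left out in turn.

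**Figure D2:**
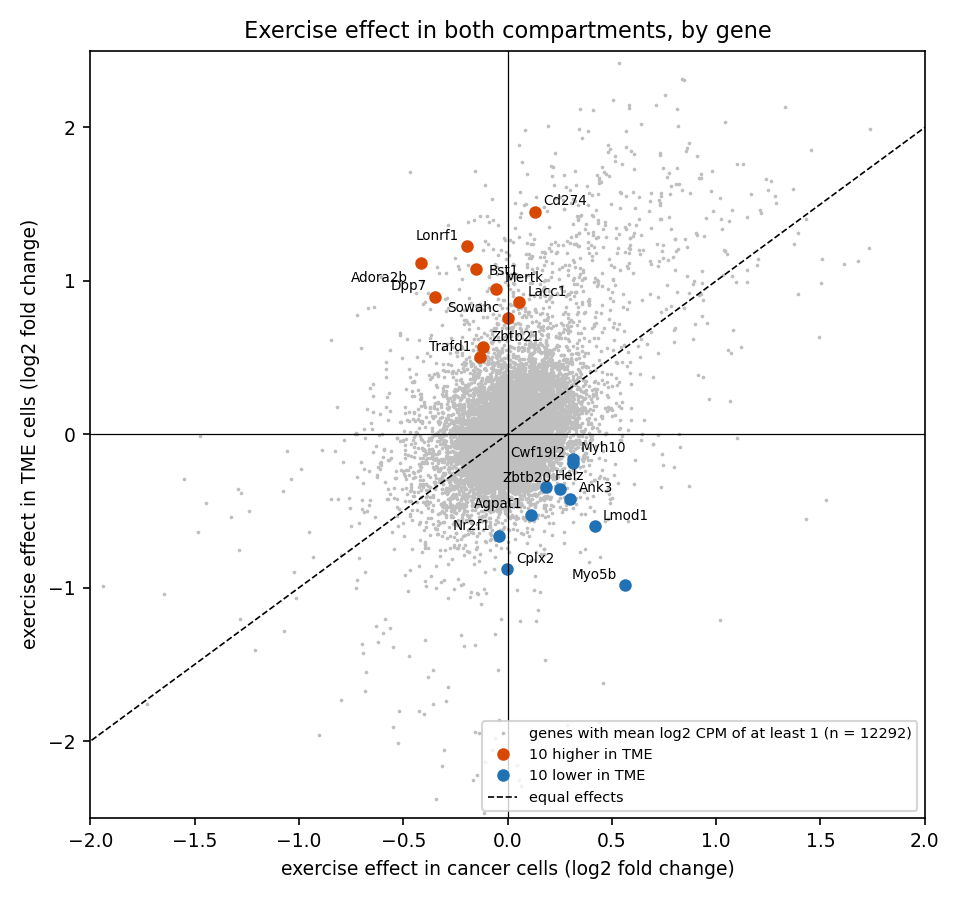
Each grey point is 1 of 12292 genes whose mean log2 CPM was 1 or more, placed by its exercise effect in cancer cells (horizontal) and in TME cells (vertical), both in log2 fold change; 5 genes lie outside the axes. The 10 named genes with a higher effect in TME cells lie above the dashed line of equal effects and the 10 with a lower effect lie below it.

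The smallest p of all named genes belonged to Ank3, which encodes ankyrin-G, an adaptor that ties membrane proteins to the spectrin cytoskeleton (ENSMUSG00000069601, GRCm38, chromosome 10, 69398773 to 70027438, plus strand). It had 68.5, 62.5, 71.1 and 69.2 CPM in the sedentary and 60.8, 40.2, 48.4 and 53.6 in the exercised TME libraries. In cancer cells the lowest, median and highest values were 49.5, 54.7 and 68.7 in sedentary and 62.4, 68.8 and 77.9 in exercised libraries. All 4 exercised TME libraries were below all 4 sedentary ones, while the cancer groups overlapped with the exercised median on the higher side. The effects were -0.42 ± 0.11 in TME cells and 0.30 ± 0.08 in cancer cells, a difference of -0.72 ± 0.14 (95% interval -1.01 to -0.43, edgeR adjusted p = 0.237). DESeq2 (adjusted p = 0.0304) and limma voom (adjusted p = 0.0167) called Ank3, and without the exercised TME libraries 8 and 9 its difference was -0.52 ± 0.15.

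Helz, a helicase with a zinc finger that binds RNA (chromosome 11, 107547930 to 107693826, plus strand), had a similar layout. Its levels were 97.8, 91.6, 93.6 and 95 CPM in sedentary and 69.4, 68.5, 76.6 and 83.7 in exercised TME libraries, again without overlap. In cancer cells the lowest, median and highest were 64.2, 75.4 and 85.6 in sedentary and 80.6, 87.0 and 89.5 in exercised libraries. The difference was -0.53 ± 0.11 (adjusted p = 0.358), from -0.34 ± 0.09 in TME and 0.18 ± 0.07 in cancer cells, and it was -0.46 ± 0.13 without the exercised TME libraries 8 and 9. Zbtb20, a zinc finger repressor and the most abundant of these genes (chromosome 16, 42875881 to 43642602, plus strand), had 666, 648, 619 and 694 CPM in sedentary and 493, 381, 562 and 619 in exercised TME libraries. The highest exercised TME library was just under the lowest sedentary one. In cancer cells Zbtb20 had a median of 475 CPM in sedentary and 579 in exercised libraries, and the difference was -0.61 ± 0.15 (adjusted p = 0.464).

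Of the other named lower genes, Lmod1 and Myo5b were among the 27 of opposite sign, and Myh10 was not. Lmod1, an actin nucleator of smooth muscle (chromosome 1, 135324807 to 135368065, plus strand), had 7.02, 4.86, 6.42 and 6.93 CPM in sedentary and 4.83, 4.49, 3.56 and 3.73 in exercised TME libraries. Its cancer cell median was 3.36 CPM in sedentary and 4.65 in exercised libraries, and its difference was -1.02 ± 0.24. Myh10, the heavy chain of nonmuscle myosin IIB, differed mainly in cancer cells, where all 7 exercised libraries (241 to 280 CPM) lay above all 8 sedentary ones (186 to 229), while TME levels of 151 to 198 and 145 to 163 CPM overlapped. Groups without overlap in this direction occurred for 45 genes in cancer cells (0.257%). The difference of Myh10 was -0.47 ± 0.11. Myo5b, a myosin that moves recycling endosomes, had a lowest, median and highest of 6.04, 8.69 and 11.1 CPM in sedentary and 8.57, 11.8 and 20.0 in exercised cancer cells. In TME libraries it had 8.80, 3.94, 4.80 and 2.77 CPM in sedentary and 2.91, 1.20, 3.25 and 2.66 in exercised mice, so that both pairs of groups overlapped and 1 sedentary library stood high (difference -1.55 ± 0.38, and -1.16 without that library, sedentary 4). Each of these 3 genes had adjusted p = 0.464.

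Amotl1, an angiomotin-like scaffold of cell junctions that binds YAP (chromosome 9, 14541966 to 14645056, minus strand), had 302, 258, 248 and 297 CPM in sedentary and 234, 174, 195 and 270 in exercised TME libraries. Its cancer cell medians were 237 and 265 CPM, and its difference was -0.52 ± 0.13, or -0.29 ± 0.14 without the exercised TME libraries 8 and 9. Its groups overlapped in both sorts. Fam83a, an adaptor of EGF receptor signalling, had -0.73 ± 0.20, and its 4 exercised TME libraries (18.9 to 22.9 CPM) lay below the 4 sedentary ones (23.9 to 37.2). Col8a1, a short-chain collagen, had -0.80 ± 0.24 with overlapping groups. The nuclear pore gene Nup188, singled out after its values were seen, had -0.34 ± 0.11, from -0.20 ± 0.09 in TME and 0.14 ± 0.06 in cancer cells. Llph-ps2, a pseudogene, had -4.64 ± 1.31 on levels of at most 2.59 CPM, and a single exercised cancer library set that highest level, so its value is uncertain.

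In the opposite direction 5 genes were named, and 1 of them, Mdm2, had a mean log2 CPM above 1. Mdm2 is the ubiquitin ligase that targets p53 (chromosome 10, 117688875 to 117710758, minus strand). It had 87.9, 109, 82.6 and 93.7 CPM in sedentary and 112, 112, 127 and 120 in exercised TME libraries. In cancer cells the lowest, median and highest were 100, 123 and 158 in sedentary and 94.7, 114 and 121 in exercised libraries. The exercised TME libraries were all above the sedentary ones, and the cancer groups overlapped. The difference was 0.51 ± 0.14 (adjusted p = 0.464), from 0.34 ± 0.11 in TME and -0.17 ± 0.08 in cancer cells, and it was 0.52 ± 0.17 without the exercised TME libraries 8 and 9. The other 4 genes were Epm2a, which encodes the glycogen phosphatase laforin (2.57 ± 0.77, and 1.42 ± 0.86 without the exercised TME libraries 8 and 9), the axonemal dynein gene Dnah14 (1.86 ± 0.56), the RING-type ubiquitin ligase gene March10 (3.89 ± 1.20) and the 5S ribosomal RNA gene n-R5s197 (1.97 ± 0.63). These 4 had a mean log2 CPM of at most 0.03, and their adjusted p-values were 0.525 to 0.543. Slc2a3, a glucose transporter, was added after its values were seen, with 0.83 ± 0.37 in TME and -0.64 ± 0.29 in cancer cells (difference 1.47 ± 0.47, and 0.69 ± 0.49 without the exercised TME libraries 8 and 9).

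**Figure D3:**
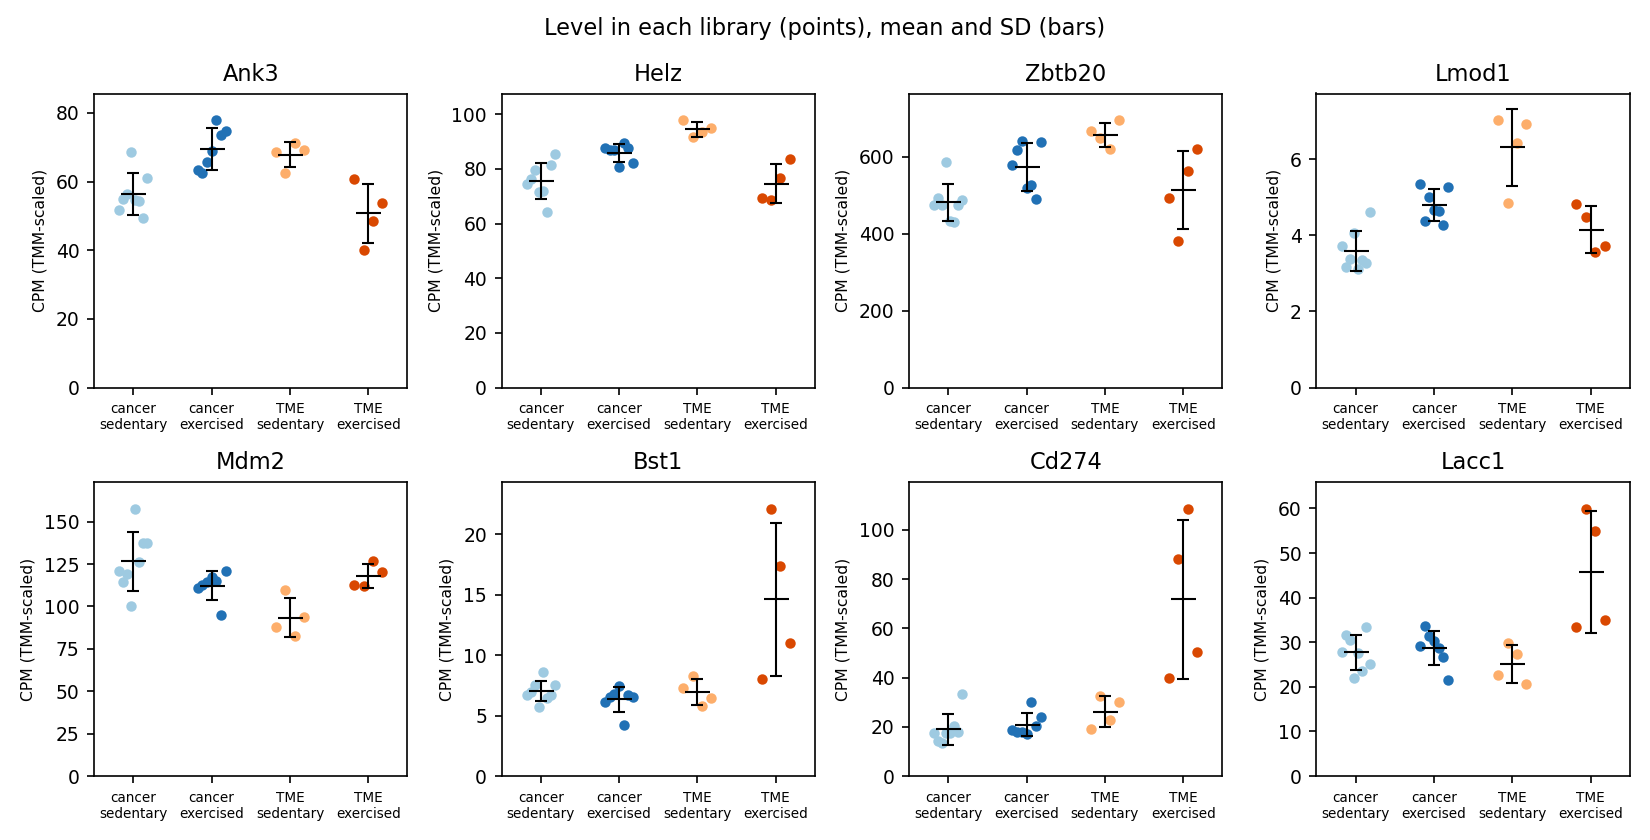
Each panel shows 1 gene, each point is the TMM-scaled CPM of a library, and bars give the mean and SD of the 4 groups (8, 7, 4 and 4 libraries). For Ank3, Helz, Zbtb20 and Lmod1 the exercised TME libraries lie below the sedentary ones; for Mdm2, Cd274 and Lacc1 they lie above, and for Bst1 the lowest exercised library lies within the sedentary range.

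Among the other 4 genes with a lower effect in TME cells, Cplx2, Nr2f1 and Agpat1 had cancer effects of -0.00, -0.04 and 0.11. Cplx2, a complexin that regulates vesicle fusion, had 65.7, 44.7, 55.6 and 49.2 CPM in sedentary and 29.7, 20.3, 30.8 and 36.2 in exercised TME libraries, with medians of 41.4 and 40.6 in cancer cells (difference -0.88 ± 0.20). Nr2f1, the orphan nuclear receptor COUP-TF1, had -0.62 ± 0.16, and Agpat1, an acyltransferase of phospholipid synthesis, -0.63 ± 0.16. For these 3 genes the exercised TME libraries were all below the sedentary ones. Such a separation occurred for 306 of all genes in TME cells (1.75%), and 7 of the 10 genes named on this side had it, which follows in part from choosing them by p. Cwf19l2, a relative of yeast splicing factors, had -0.50 ± 0.13, with all 7 exercised cancer libraries (56.2 to 70.5 CPM) above the sedentary ones (44.1 to 53.4).

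Of the 10 named genes with a higher effect in TME cells, none passed at the adjusted threshold. Cd274 encodes PD-L1, the ligand of the checkpoint receptor PD-1 (chromosome 19, 29367455 to 29388095, plus strand). It had 19.3, 32.6, 22.9 and 30.0 CPM in sedentary and 39.9, 88.1, 109 and 50.4 in exercised TME libraries. In cancer cells the lowest, median and highest were 13.5, 17.5 and 33.4 in sedentary and 17.1, 18.5 and 30.2 in exercised libraries. Every exercised TME library exceeded every sedentary one, and libraries 8 and 9, which had the highest pan-leukocyte levels, were the highest. The cancer groups overlapped. The difference was 1.32 ± 0.35 (95% interval 0.59 to 2.05, adjusted p = 0.464), from 1.45 ± 0.29 in TME and 0.13 ± 0.21 in cancer cells. It was 0.67 ± 0.32 without the exercised TME libraries 8 and 9, and limma voom called it with all libraries (adjusted p = 0.0413).

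Bst1, the ectoenzyme CD157 of myeloid and stromal cells (chromosome 5, 43818885 to 43843986, plus strand), had the smallest p on this side among the ranked genes. It had 7.30, 8.31, 5.78 and 6.44 CPM in sedentary and 8.03, 22.1, 17.4 and 11 in exercised TME libraries, and medians of 6.85 and 6.52 in cancer cells. Libraries 8 and 9 were highest and library 7 lay within the sedentary range. The difference was 1.23 ± 0.28 (adjusted p = 0.464), and 0.63 ± 0.26 without libraries 8 and 9. Dpp7, a lysosomal dipeptidyl peptidase, had 14.7, 12.5, 10.4 and 11.3 CPM in sedentary and 15.0, 31.4, 33.2 and 11.1 in exercised TME libraries (1.25 ± 0.30, and 0.47 ± 0.26 without libraries 8 and 9). Lacc1, a macrophage enzyme of purine metabolism, had 22.7, 29.8, 27.4 and 20.7 CPM in sedentary and 33.3, 59.9, 54.8 and 34.9 in exercised TME libraries (0.81 ± 0.21, and 0.41 ± 0.20 without them). Mertk, a receptor by which phagocytes take up dying cells, had 1.003 ± 0.28, and 0.57 ± 0.28 without them.

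Of the remaining genes on this side, Adora2b and Zbtb21 moved least without the exercised TME libraries 8 and 9. Adora2b, the A2B receptor of adenosine, had 1.69, 1.53, 1.77 and 0.537 CPM in sedentary and 3.46, 3.32, 3.27 and 1.86 in exercised TME libraries, with medians of 1.96 and 1.55 in cancer cells (1.53 ± 0.42, and 1.39 ± 0.49 without them). Zbtb21, a zinc finger factor, had 10.02, 13.9, 8.37 and 10.6 CPM in sedentary and 15.4, 14, 17.1 and 17.3 in exercised TME libraries (0.69 ± 0.19, and 0.75 ± 0.22 without them). Both genes were at least as high in library 7 as in library 8. Lonrf1, a RING finger protein with a LON domain, had 1.42 ± 0.36, the ankyrin repeat gene Sowahc 0.75 ± 0.20 and Trafd1, a restrainer of innate immune signalling, 0.64 ± 0.17, and these were 0.81 ± 0.38, 0.53 ± 0.21 and 0.34 ± 0.18 without them. For 8 of the 10 genes the exercised TME libraries were all above the sedentary ones, where 357 of all genes (2.04%) had that separation in TME cells and the choice by p favours it. Each of the 10 higher and 10 lower genes had the same sign in each of the 38 alternatives tried. They were chosen by p in the same libraries, and 23 of the alternatives left out 1 library, so this follows in part from the choice.

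Gm38257, a predicted gene left out of the ranking, had the second smallest p of the difference and was called by DESeq2 (adjusted p = 0.0304). It had 0, 0.120, 0.0513 and 0.0894 CPM in sedentary and 0.810, 0.569, 0.805 and 1.64 in exercised TME libraries, against medians of 0.691 and 0.414 in cancer cells. All exercised TME libraries were above the sedentary ones, at levels near the limit of detection. Its difference was 4.17 ± 0.83 (edgeR adjusted p = 0.237), a fitted value that depends on the prior count.

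Lists of leukocyte genes had the highest median differences, and these 6 medians were below 0 without the exercised TME libraries 8 and 9. The 6 highest medians were those of leukocyte adhesion and trafficking (0.83, 16 of 20 members above 0), monocyte (0.76, 10 of 10), macrophage (0.74, 16 of 16), mast cell (0.74, 11 of 11), MHC class II (0.69, 10 of 12) and dendritic cell genes (0.68, 10 of 12). No member passed at the adjusted threshold, and 5, 1, 6, 1, 1 and 0 members had an unadjusted p under 0.05 on the higher side, where 4.18% of all genes did. Without the exercised TME libraries 8 and 9 the medians were -0.17, -0.21, -0.73, -0.37, -0.46 and -0.32. With the 14 libraries whose number occurs in both sorts, which leave out exercised TME library 9, they were 0.34, 0.37, 0.22, 0.15, 0.24 and 0.38. When the pan-leukocyte level entered as covariate, a fit added after the data were seen, they were 0.39, 0.18, 0.21, 0.38, 0.21 and 0.26. The pan-leukocyte markers themselves had a median of 0.67 (12 of 14 above 0) and of -0.81 (0 of 14) without libraries 8 and 9.

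Single members show the same 2 libraries. Ptprc, the pan-leukocyte phosphatase CD45, had 17.9, 39.9, 45.8 and 29.3 CPM in sedentary and 25.2, 189, 214 and 51.4 in exercised TME libraries (difference 1.36 ± 0.65, and -0.25 ± 0.51 without libraries 8 and 9). Adgre1, the macrophage antigen F4/80, had 15.2 and 27.4 CPM in exercised libraries 7 and 10 and 116 and 125 in libraries 8 and 9, against 19.5 to 28.1 in sedentary TME libraries. In cancer cells all 7 exercised libraries (2.17 to 7.07 CPM) were above all 8 sedentary ones (0.804 to 2.16), so that its difference was 0.39 ± 0.64 with all libraries and -1.31 ± 0.45 without 8 and 9. Among macrophage genes Cd68, a lysosomal antigen, had 1.08 ± 0.41, and -0.04 ± 0.28 without them. Among adhesion genes the integrin Itgal, part of LFA-1, had 1.60 ± 0.62 and -0.08 ± 0.43 without them, and the endothelial ligand Vcam1 had 0.54 ± 0.23 and 0.18 ± 0.21. Vcam1 had sedentary means of 216 CPM in cancer and 175 in TME cells, so it did not mark the TME sort. Selp, the P-selectin of platelets and endothelium, was highest in exercised library 7 instead (2.76 CPM, against at most 0.935 in the other TME libraries) and had 1.74 ± 0.69, and 0.99 ± 0.67 without library 7.

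In the monocyte list Ly6c2, the surface antigen of inflammatory monocytes, had 1.46 ± 0.61, with -0.85 ± 0.37 in cancer cells, and 0.44 ± 0.63 without the exercised TME libraries 8 and 9. The coagulation factor gene F13a1 had 0.46 ± 0.31, and -0.25 ± 0.23 without them. Its sedentary means were 253 CPM in cancer and 260 in TME cells. The summed monocyte markers had sedentary medians of 5393 CPM in cancer and 5419 in TME cells, so neither set the sorts apart. In the mast cell list the IgE receptor chain Fcer1a had 2.47 ± 1.04, the factor Gata2 0.56 ± 0.32 and the receptor Mrgprb1 1.41 ± 0.91. Without those libraries Fcer1a had 0.71 ± 1.02, Gata2 0.013 ± 0.33 and Mrgprb1 -0.16 ± 0.95. Of the MHC class II list, Ciita, the master activator of these genes, had 5.52, 7.63, 13.9 and 6.71 CPM in sedentary and 9.83, 48.5, 37.4 and 16.2 in exercised TME libraries (1.25 ± 0.47, and 0.17 ± 0.41 without libraries 8 and 9). H2-DMa, which loads peptide onto class II, had 0.69 ± 0.46 and the costimulator Cd86 0.80 ± 0.57, and both turned without those libraries, to -0.36 ± 0.37 and -0.12 ± 0.55. With the replicate number as a block H2-DMa had -0.28 ± 0.46. In the dendritic cell list the integrins Itgae and Itgax had 0.81 ± 0.46 and 0.91 ± 0.55, and -0.41 ± 0.42 and -0.31 ± 0.47 without them. Fscn1, an actin bundler that mature dendritic cells and other migratory cells make, had -0.57 ± 0.16, and -0.33 ± 0.17 without them, with 260, 177, 210 and 237 CPM in sedentary and 202, 137, 120 and 152 in exercised TME libraries.

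**Figure D4:**
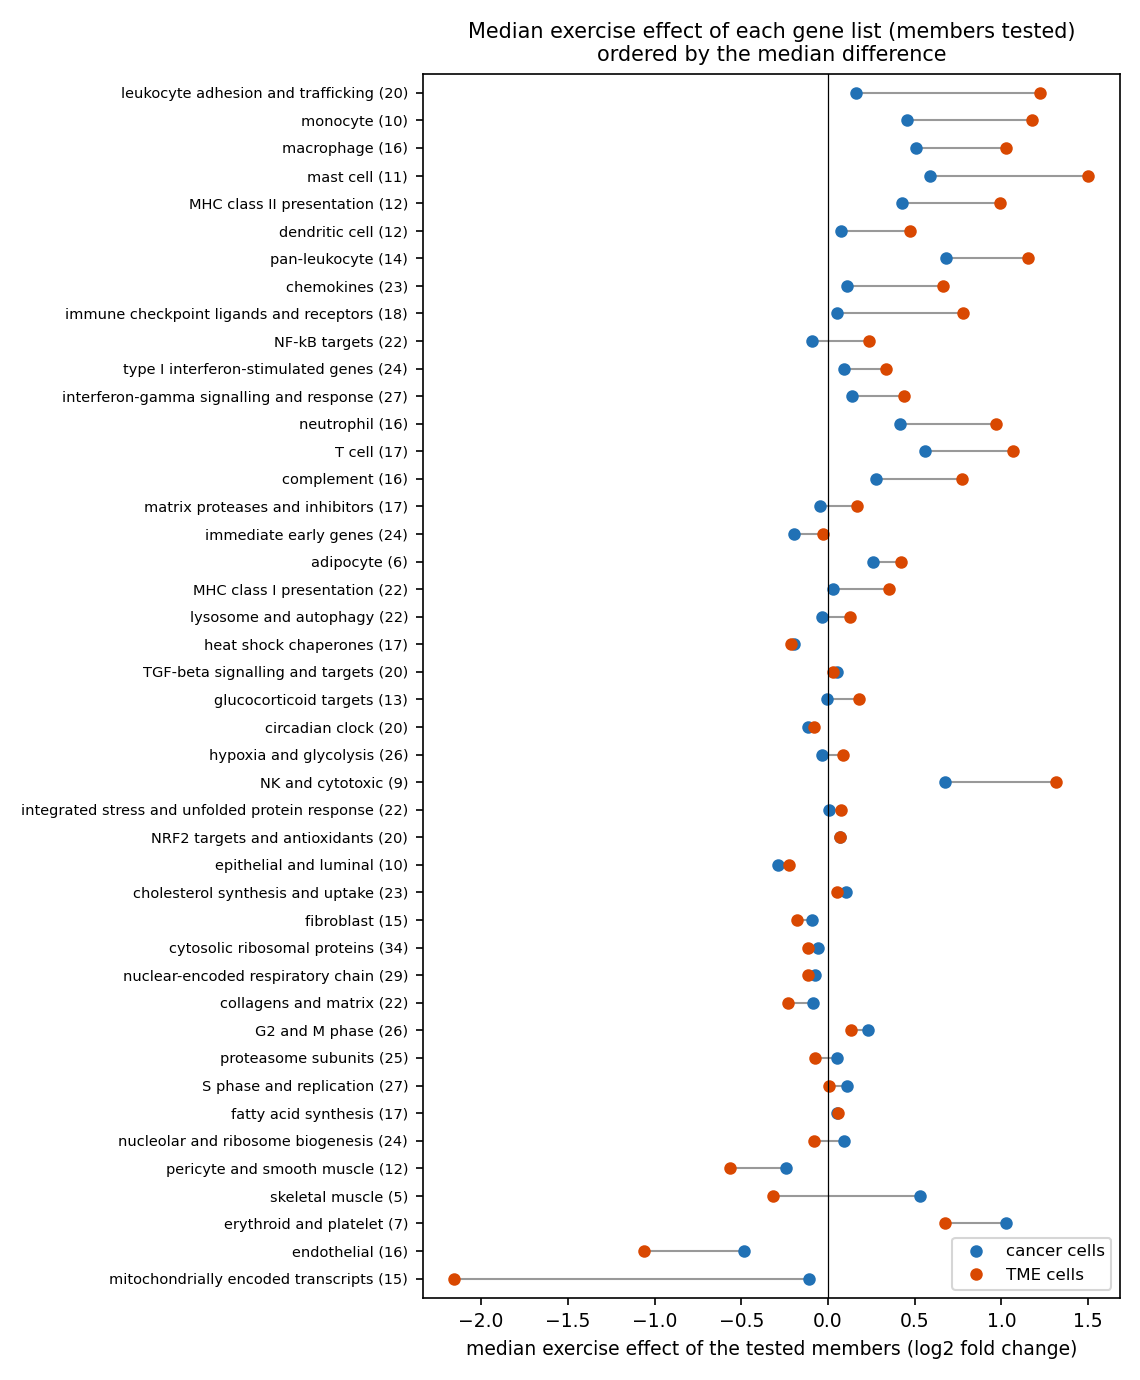
For each list with at least 5 tested members, the points give the median exercise effect of its members in cancer and in TME cells (horizontal axis, log2 fold change); lists are ordered by the median difference. Leukocyte lists at the top have both medians above 0 with the larger one in TME cells, and the mitochondrially encoded and endothelial lists at the bottom have a TME median of -2.15 and -1.06.

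Interferon-gamma and MHC class I genes had median effects above 0 in TME cells with smaller differences that were above 0 with and without libraries 8 and 9. The interferon-gamma list had a median effect of 0.44 in TME cells and 0.14 in cancer cells, and 25 of 27 members had a difference above 0 (median 0.39, and 0.18 with 20 of 27 above 0 without libraries 8 and 9). Without the sedentary cancer library 10 the median was 0.19. With the replicate number as a block it was 0.12 with 18 of 27 above 0, and in the 14 libraries of both sorts 0.24 with 21 of 27. At an unadjusted p under 0.05, 4 members had a higher and 0 a lower effect in TME cells, against 4.18% and 3.34% of all genes. MHC class I genes had medians of 0.35 and 0.03, with 22 of 22 differences above 0, against 51.7% of all genes. Their median difference was 0.20, and 0.23 with 21 of 22 above 0 without libraries 8 and 9. On the higher side 2 of 22 had an unadjusted p under 0.05, against 4.18% of all genes. With the replicate number as a block the class I median was -0.02, and with the 14 libraries of both sorts it was 0.07. The promoters of 4 genes of these pathways are shown because they carry, or lack, the letters of known interferon response elements. They are the 250 bases before the start in the RefSeq annotation of GRCm38.p6: Gbp5, a guanylate-binding protein, at chr3:142496684-142496933 (plus strand), Igtp, an immunity-related GTPase, at chr11:58199306-58199555 (plus strand), Irf1, a transcription factor, at chr11:53769764-53770013 (plus strand) and Cd274 at chr19:29367188-29367437 (plus strand). Capitals mark TTCNNNGAA, the core of the gamma-activated sequence, which reads the same on both strands, and GAAA followed after any 2 bases by GAAA, called here the GAAA repeat, a core of the interferon-stimulated response element sought on both strands.
Gbp5: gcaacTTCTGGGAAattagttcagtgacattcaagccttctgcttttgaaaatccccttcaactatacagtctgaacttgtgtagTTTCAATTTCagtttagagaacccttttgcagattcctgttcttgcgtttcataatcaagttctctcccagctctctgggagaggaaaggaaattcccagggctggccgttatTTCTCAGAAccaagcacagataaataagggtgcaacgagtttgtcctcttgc
Igtp: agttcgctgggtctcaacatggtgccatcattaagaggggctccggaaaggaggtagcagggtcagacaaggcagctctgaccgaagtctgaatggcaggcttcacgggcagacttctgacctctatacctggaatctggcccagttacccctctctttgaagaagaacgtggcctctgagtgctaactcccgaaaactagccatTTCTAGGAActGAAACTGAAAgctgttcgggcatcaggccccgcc
Irf1: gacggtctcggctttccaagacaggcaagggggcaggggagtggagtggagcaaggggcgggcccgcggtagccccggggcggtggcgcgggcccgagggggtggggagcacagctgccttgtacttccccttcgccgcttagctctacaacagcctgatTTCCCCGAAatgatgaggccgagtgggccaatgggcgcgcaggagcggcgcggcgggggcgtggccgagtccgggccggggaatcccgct
Cd274: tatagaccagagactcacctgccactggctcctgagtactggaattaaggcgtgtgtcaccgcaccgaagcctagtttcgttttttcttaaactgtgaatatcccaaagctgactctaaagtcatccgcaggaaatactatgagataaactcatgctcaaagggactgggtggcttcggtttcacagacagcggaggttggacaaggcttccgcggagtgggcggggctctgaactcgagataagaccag

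Of the 27 interferon-gamma genes 21 had an entry, with 24 promoters. TTCNNNGAA occurred in 8 of these 24 (33.3%) and in 7.02% of all 32851 promoters of this length, and the GAAA repeat in 9 of the 24 (37.5%) and in 2.98% of all. Of the MHC class I list 21 promoters of 19 genes held them in 2 (9.52%) and 3 (14.3%) cases. Gbp5 holds TTCNNNGAA 245 and 52 bases and the GAAA repeat 165 bases before its start, Igtp holds TTCNNNGAA at 45 and the GAAA repeat at 34 bases, and Irf1 holds TTCNNNGAA at 90 bases. Cd274 has neither in this window. Gbp5, Igtp and Irf1 were chosen after their values were seen. Gbp5 had 38.9, 27.3, 25.8 and 32.0 CPM in sedentary and 51.6, 69.2, 74.6 and 45.4 in exercised TME libraries, without overlap, and a difference of 0.61 ± 0.35. That difference was 0.33 ± 0.40 without the exercised TME libraries 8 and 9 and 0.12 ± 0.49 with the replicate number as a block. Igtp had 0.24 ± 0.39 and Irf1 0.07 ± 0.30, and -0.12 ± 0.35 and -0.20 ± 0.30 with that block, both with overlapping groups in both sorts.

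Nlrc5, the transactivator of class I genes, had 90.8, 131, 88.0 and 111 CPM in sedentary and 196, 191, 168 and 168 in exercised TME libraries, without overlap and as high in library 7 as in library 8. Its cancer cell effect was 0.33 ± 0.15 and its difference 0.45 ± 0.26 (adjusted p = 0.715), and 0.48 ± 0.31 without libraries 8 and 9. B2m, the light chain of class I, had 2641, 3824, 3394 and 2391 CPM in exercised and 1800 to 2342 in sedentary TME libraries (0.46 ± 0.25, and 0.20 ± 0.27 without libraries 8 and 9), and the heavy chain gene H2-K1 had 0.39 ± 0.33, though class I heavy chains are near-identical and may share reads. With the replicate number as a block the differences were 0.26 for Nlrc5, 0.068 for B2m and 0.13 for H2-K1. Ifngr1, a chain of the interferon-gamma receptor chosen after its values were seen, had 167 and 151 CPM in exercised TME libraries 8 and 9 and 83.1 to 92.9 in the other 6 (0.44 ± 0.19, and -0.05 ± 0.14 without them).

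NF-kB targets had medians of opposite sign in the 2 sorts. Their median effect was 0.24 in TME cells and -0.09 in cancer cells, and 12 of 22 members had estimates of opposite sign, where 40.5% of all genes did. The list level was 3.66 to 4.85 log2 CPM in sedentary and 3.99 to 4.78 in exercised cancer libraries. In TME libraries it was 4.78 to 5.67 and 5.55 to 5.94, so the groups overlapped in both sorts. The difference was above 0 for 19 of 22 members (median 0.49), against 51.7% of all genes. At an unadjusted p under 0.05, 4 were higher and 0 lower, against 4.18% and 3.34% of all genes. Without the exercised TME libraries 8 and 9 the median was 0.34 with 21 of 22 above 0, with the 14 libraries of both sorts 0.17, and with the replicate number as a block 0.13 with 15 of 22 above 0. Il6 and Tnf, inflammatory cytokines of this pathway, were chosen after their values were seen. Il6 had 1.40, 1.20, 0.590 and 2.37 CPM in sedentary and 3.98, 0.854, 2.36 and 2.75 in exercised TME libraries, and a lowest, median and highest of 0.255, 1.62 and 2.68 in sedentary and 0.165, 0.610 and 1.40 in exercised cancer cells. Library 7, with the lowest leukocyte level of the TME libraries, was the highest, and the groups overlapped in both sorts (difference 2.08 ± 0.71, adjusted p = 0.559). Tnf had 1.03, 4.38, 2.88 and 6.22 CPM in sedentary and 6.63, 10.9, 12.1 and 8.16 in exercised TME libraries, and stayed under 1.39 CPM in every cancer library (1.65 ± 0.59).

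Immediate early genes, transcription factors induced within minutes of stimulation, had a median of -0.03 in TME and -0.20 in cancer cells. Among sedentary cancer libraries, library 4 was lowest and library 7 highest in this list (6.05 and 7.41 log2 CPM). The same libraries were lowest and highest there in NF-kB targets, and the cause was not tested. The difference was above 0 for 21 of 24 (median 0.27, and 0.56 with 23 of 24 without libraries 8 and 9), but -0.10 with the 14 libraries of both sorts. With all 23 libraries lysosome and autophagy genes had a median difference of 0.19. The difference was above 0 for 19 of 22 and effects had opposite signs for 12 of 22, against 51.7% and 40.5% of all genes. On the higher side 6 had an unadjusted p under 0.05, against 4.18% of all genes. The protease Ctsb had 949, 1127, 1103 and 1085 CPM in sedentary and 993, 2087, 2265 and 1152 in exercised TME libraries (0.68 ± 0.21, and 0.11 ± 0.16 without 8 and 9). Pfkfb3, an activator of glycolysis, had 54.1, 105, 142 and 86.6 CPM in exercised and 60.5 to 71.9 in sedentary TME libraries, with medians of 62.1 and 55.9 in cancer cells (0.72 ± 0.21, and 0.29 ± 0.18 without them). Both genes were chosen after their values were seen.

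Mitochondrially encoded and endothelial genes had the lowest medians. The endothelial median turned without sedentary TME library 4, and the mitochondrial one without sedentary libraries 4 and 6. All 15 mitochondrially encoded genes tested had a difference below 0 (median -2.09, 10 at an unadjusted p under 0.05, where 3.34% of all genes were). The respiratory subunit gene mt-Nd5 had 57564, 13624, 2924 and 4911 CPM in sedentary and 4475, 2323, 3801 and 6716 in exercised TME libraries, and medians of 2784 and 3202 in cancer cells. Sedentary libraries 4 and 6 exceeded every exercised one, and sedentary libraries 9 and 10 lay within the exercised range. Its difference was -2.37 ± 0.76, mt-Nd6 had -2.20 ± 0.72 and mt-Co2 -2.49 ± 0.81. Without both sedentary libraries 4 and 6 these were -0.012 ± 0.42, -0.12 ± 0.42 and -0.18 ± 0.53. The list median was -0.44 without sedentary TME library 4 and 0.18 without libraries 4 and 6. Of the endothelial markers 15 of 16 lay below 0 (median -0.60), and without sedentary TME library 4 the median was 0.21 with 11 of 16 above 0. The VEGF receptor Kdr had 59.0 CPM in that library and 5.69 to 17.9 in the other TME libraries (-1.15 ± 0.56, and -0.31 without it). Pecam1, the junctional antigen CD31, had -0.58 ± 0.57, and 0.37 without it. Plvap, a protein of capillary diaphragms, had -0.88 ± 0.55, and 0.014 ± 0.38 without it. Flt1, the decoy-like VEGF receptor, had -0.40 ± 0.16, and -0.14 ± 0.16 without the exercised TME libraries 8 and 9. Its sedentary means were 323 CPM in cancer and 372 in TME cells, where Kdr had 1.42 and 25.5.

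Pericyte and smooth muscle genes had a median of -0.33 (8 of 12 below 0), and -0.13 without sedentary TME library 4. The surface antigen Mcam had -0.72 ± 0.32 (-0.16 without it), the proteoglycan Cspg4 -1.03 ± 0.51 (-0.51 without it) and the PDGF receptor Pdgfrb -0.34 ± 0.17 (-0.17 without the exercised TME libraries 8 and 9). Pdgfrb had 229, 233, 274 and 303 CPM in sedentary and 193, 154, 163 and 197 in exercised TME libraries without overlap, and its cancer effect had the same sign (-0.22 ± 0.10). Its sedentary means were 262 CPM in cancer and 260 in TME cells, so it did not mark the TME sort. The skeletal muscle list (median -0.35 over 5 genes) rested on few counts, with summed markers of at most 14.7 CPM in any library. The erythroid and platelet list (-0.36 over 7 genes) varied widely between libraries. Its summed markers were 13.3 to 110 CPM in sedentary and 14.4 to 243 in exercised TME libraries. Hba-a1, an alpha globin, had -1.95 ± 1.43, the haem synthesis gene Alas2 -0.79 ± 0.78 and the platelet chemokine Pf4 2.18 ± 0.95. Without the exercised TME libraries 8 and 9 they had -5.49 ± 1.76, -2.42 ± 0.87 and 0.20 ± 0.83, and the list median was -2.42. Without both sedentary TME libraries 4 and 6 it was 0.63. Myh1 and Mylpf, myosin genes of fast muscle, both had -1.02, with errors of 0.51 and 0.57, and the skeletal actin Acta1 had 0.66 ± 1.09. Leaving out sedentary TME library 6 gave the erythroid and platelet list a median of 0.13, and leaving out sedentary library 4 gave the muscle list 0.07.

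**Figure D5:**
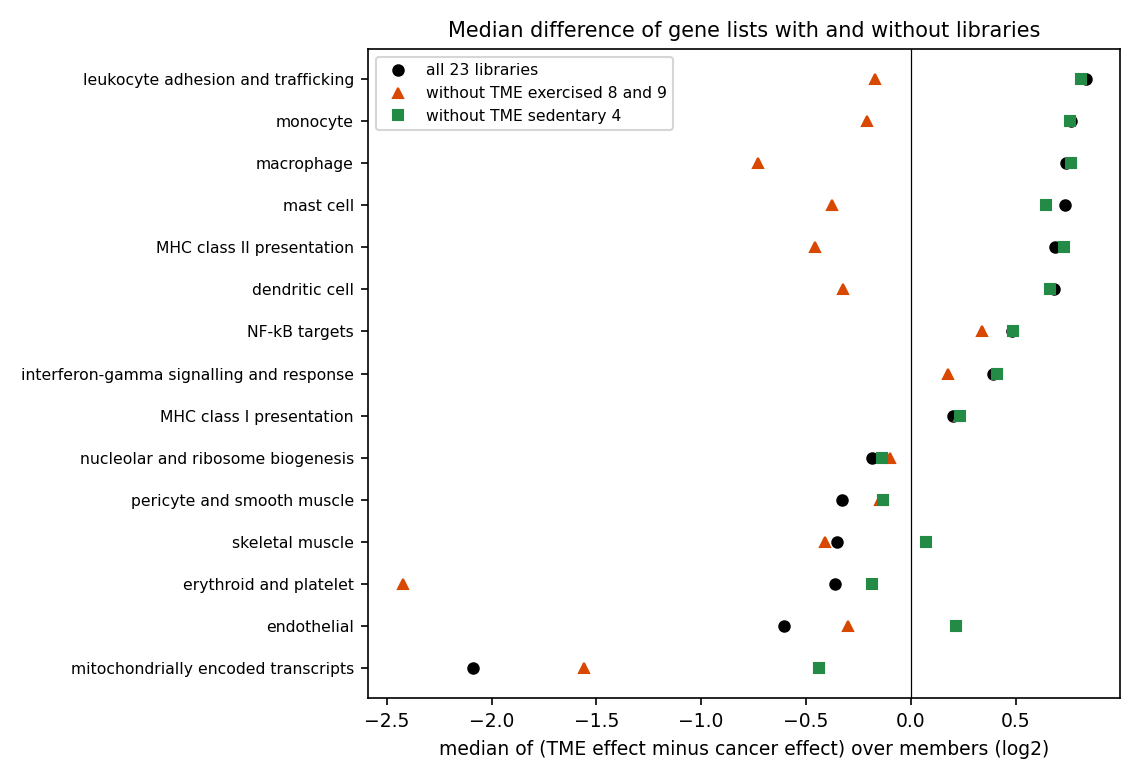
The horizontal axis is the median over list members of the TME effect minus the cancer effect (log2), with all 23 libraries (circles), without the exercised TME libraries 8 and 9 (triangles) and without the sedentary TME library 4 (squares). The 6 leukocyte lists cross 0 without libraries 8 and 9, the endothelial list crosses 0 without library 4 and the interferon-gamma, MHC class I and NF-kB lists stay above 0 in all 3 fits.

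Genes of growth and division had medians slightly below 0. Nucleolar and ribosome biogenesis genes had a median effect of -0.08 in TME and 0.09 in cancer cells. Of their differences 21 of 24 lay below 0 (median -0.19, range over single libraries left out -0.21 to -0.09), against 48.3% of all genes. On the lower side 1 member had an unadjusted p under 0.05, against 3.34% of all genes. Nop14, a factor of small subunit assembly, had -0.32 ± 0.15, nucleolin, Ncl, -0.27 ± 0.13 and Gar1, a small nucleolar RNA protein, -0.34 ± 0.17. Without sedentary TME library 4 they had -0.19 ± 0.15, -0.17 ± 0.13 and -0.21 ± 0.17. Of the G2 and M phase genes 13 of 26 had an unadjusted p under 0.05 on the higher side in cancer cells, where 6.43% of all genes did, and 1 in TME cells, where 9.41% did. The difference itself was small (median -0.08, 19 of 26 below 0). The 1 gene with an unadjusted p under 0.05, against 3.34% of all genes on that side, was Ttk, a spindle checkpoint kinase (-0.41 ± 0.17). Hmmr, a spindle-associated protein, had 0.52 ± 0.12 in cancer and 0.36 ± 0.17 in TME cells and a difference of -0.16 ± 0.21. The topoisomerase Top2a had 0.42 ± 0.12 and 0.10 ± 0.16, a difference of -0.32 ± 0.20, and the proliferation antigen Mki67 0.37 ± 0.10 and 0.28 ± 0.14, a difference of -0.09 ± 0.17 (95% interval -0.44 to 0.26). S phase genes had a median of -0.14 (20 of 27 below 0). In the cholesterol list Pmvk, a kinase of the mevalonate pathway, had 42.5, 29.5, 33.2 and 33.5 CPM in sedentary and 27.4, 22.7, 24.5 and 25.2 in exercised TME libraries. Its cancer cell medians were 18.7 and 18.5 CPM, and its difference was -0.53 ± 0.19. The list as a whole had a median of -0.06. Of its 23 tested genes 4 had an unadjusted p under 0.05 on the lower side and 1 on the higher side. Over all genes these shares were 3.34% and 4.18%. Hmmr, Ttk, Top2a and Pmvk were chosen after their values were seen.

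Other genes of interest had differences near 0 with all 23 libraries, with the intervals given. Fasn, the fatty acid synthase, had 0.36 ± 0.09 in cancer and 0.16 ± 0.12 in TME cells (difference -0.21, 95% interval -0.52 to 0.11), and all 7 exercised cancer libraries (985 to 1241 CPM) were above the sedentary ones (738 to 947). Nr1d2, a repressor of the circadian clock, had -0.52 ± 0.16 in cancer and -0.49 ± 0.21 in TME cells (difference 0.03, -0.51 to 0.57). The chaperonin gene Hspe1 had -0.41 ± 0.14 and -0.21 ± 0.18 (difference 0.20, -0.27 to 0.67), and Csf1, the growth factor of macrophages, -0.20 ± 0.10 and -0.04 ± 0.13 (difference 0.16, -0.18 to 0.50). Krt18, an epithelial keratin, had -0.39 ± 0.18 and -0.44 ± 0.24 (difference -0.05, -0.67 to 0.56). Spp1, which encodes osteopontin, had a difference of 0.08 (-0.39 to 0.54), the mesenchymal filament gene Vim 0.02 (-0.33 to 0.38), the epithelial adhesion gene Epcam 0.08 (-1.26 to 1.43) and the angiogenic factor Vegfa 0.03 (-0.66 to 0.72). Several of these moved without the exercised TME libraries 8 and 9. The differences were then 0.47 for Hspe1, 0.43 for Vegfa, 0.42 for Csf1, 0.38 for Krt18 and 0.30 for Nr1d2. Spp1 then had 0.26, Vim 0.16 and Epcam -0.35.

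The difference varied with base composition. Among genes whose mean log2 CPM was 1 or more its median was 0.09 in the tenth of genes with the lowest GC content and -0.11 in the tenth with the highest, from 0.16 to -0.14 in TME cells and 0.07 to -0.02 in cancer cells. The 10 named higher genes had a median transcript GC content of 47.2% and the 10 lower ones of 51.7%, against 49.4% over all. Their median transcript lengths were 3352.5 and 5836.5 bases, against 3390 over all. By length, the median difference was -0.03 in the tenth with the shortest and -0.01 in the tenth with the longest transcripts. With splines of transcript length and GC content as offsets, a fit added after the data were seen, edgeR called 0 genes in each direction and the smallest adjusted p was 0.116.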

How the data were processed

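Polyadenylated RNA of sorted cells was sequenced from Trizol extracts and KAPA Standard mRNA-Seq libraries, per the labels' protocols. The submitters' processing notes name STAR, featureCounts and mm10. Their versions, the annotation and the strand setting were not found in these sources, so reads of genes that overlap or run antisense may be shared. The authors deposited raw read counts for 48397 gene symbols in 23 columns, all used, of which 16422 had no count; no symbol was blank and no library pair was identical.

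The deposited counts entered edgeR 4.0.16 in R 4.3.3: filterByExpr on the 4 groups (17503 genes tested), TMM scaling and the robust quasi-likelihood test, two-sided, with Benjamini-Hochberg adjustment over all genes and a threshold of 0.05. The contrast was the exercise effect in TME minus that in cancer cells, and each effect was tested in the same fit of 23 libraries. Adjusted p-values are edgeR's unless another tool is named. Values after ± are standard errors of log2 fold changes, levels are TMM-scaled CPM, and list levels are mean log2 CPM with a prior count of 2.

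The comparison, the 46 gene lists and the rules were chosen with earlier results of these data known. Named genes were the 10 per direction with the smallest p and a mean log2 CPM of 1 or more, without predicted, receptor segment and mitochondrial genes; up to 5 per direction among genes with an unadjusted p under 0.05 in both sorts and opposite signs; 3 members with the smallest p of each of the 6 lists with the highest and the 6 with the lowest median; 18 genes always reported; and 17 chosen after their values were seen. A few genes that these rules name are not reported here. Lists have no p-value. The alternatives, 38 in all, included DESeq2 1.42.0, limma 3.58.1 voom, RLE factors, other filters, the replicate number as a block and each library left out. Coordinates are those of GENCODE M21 on GRCm38, matched by symbol for 46394 symbols (95.9%). The gene test was tried on simulated counts, drawn independently for each gene and library. That trial therefore did not cover libraries that stand apart over many genes, as some do here.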

Additional observations from a re-analysis of the deposited data

Results flagged for a closer look

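In 15 of 94 named genes every exercised TME library lay on one side of the sedentary TME mean. In the same genes every exercised cancer library lay on the other side of the sedentary cancer mean. Only named genes were examined, and the share over all genes tested was not counted. The TME libraries were the higher ones for Mdm2 0.51, Dnah14 1.86 and March10 3.89, and the lower ones for Ank3 -0.72, Helz -0.53, Lmod1 -1.02, Myh10 -0.47, Myo5b -1.55, Zbtb20 -0.61, Amotl1 -0.52, Fam83a -0.73, Llph-ps2 -4.64, Col8a1 -0.80, Nop14 -0.32 and Nup188 -0.34, each value being the difference of the effects. The edgeR test of the difference itself passed the adjusted threshold for 0 of them, and for genes chosen by p this pattern follows in part from the choice.

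Single libraries stood far from the rest of their group in 22 of 380 groups of values, where chance flags about 1 in 20. Among TME cells they were Adora2b in sedentary library 10 (0.537 CPM, others 1.53 to 1.77), Adora2b in exercised library 10 (1.86 CPM, others 3.27 to 3.46), Epm2a in sedentary library 4 (0 CPM, others 0.482 to 0.642), Kdr in exercised library 8 (5.69 CPM, others 14.4 to 15.1) and Plvap in sedentary library 4 (93.3 CPM, others 20.1 to 23.1). The others there were Mylpf in exercised library 9 (0.961 CPM, others 1.23 to 1.25), Mcam in sedentary library 4 (58.8 CPM, others 19.6 to 21) and Hmmr in sedentary library 9 (44.9 CPM, others 25.6 to 27.6). Among cancer cells they were Bst1 in exercised library 7 (4.25 CPM, others 6.14 to 7.41), Cd274 in sedentary library 10 (33.4 CPM, others 13.5 to 20.3), Zbtb20 in sedentary library 5 (585 CPM, others 430 to 492), Mdm2 in exercised library 8 (94.7 CPM, others 111 to 121) and Selp in exercised library 2 (1.07 CPM, others 0.529 to 0.672). Next came Fcer1a in exercised library 5 (0 CPM, others 0.259 to 0.610), H2-DMa in sedentary library 9 (2.999 CPM, others 5.36 to 7.99), Flt1 in sedentary library 5 (274 CPM, others 313 to 352), Myh1 in exercised library 7 (3.76 CPM, others 1.06 to 1.57) and Mylpf in exercised library 5 (1.59 CPM, others 0.487 to 0.813). Further ones were Cspg4 in exercised library 5 (0.931 CPM, others 1.87 to 3.05), Nlrc5 in sedentary library 10 (192 CPM, others 83.4 to 122) and Vim in sedentary library 7 (4439 CPM, others 3032 to 3352). The mitochondrial share was 3.90% in sedentary cancer library 7, against 2.80% to 3.20% in the others. No explanation of these values was tested.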

How the results depend on the processing

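The counts of calls depended on the tool and on single libraries. Genes with a higher and a lower effect in TME cells numbered 0 and 0 with edgeR, 1 and 1 with DESeq2, 19 and 17 with limma voom, and 5 and 8 in the 14 libraries whose number occurs in both sorts. Over the single libraries left out they were 0 to 49 and 0 to 3, and the calls came without the exercised TME library 7. A fit with the replicate block gave 4 and 10. The same number's TME and cancer libraries deviated from their group means with correlations of -0.060 to 0.050 in the 4 sedentary pairs and 0.144 to 0.243 in the 3 exercised pairs, and 2 of 7 TME libraries, both exercised, correlated best with their own number. The labels do not say what a number marks, and whether the numbers pair the samples was not settled. Genes of opposite sign numbered 27, 105 with limma voom, 96 without a filter, 44 in the 14 libraries, 56 without the sedentary TME libraries 4 and 6, and 15 to 56 with single libraries left out. Genes called within TME cells numbered 0, 307 with DESeq2, 1470 with limma voom, 14 without a filter, 2 with splines of length and GC content, and 0 to 952 with single libraries left out. Genes called within cancer cells numbered 1, 39 with DESeq2, 299 with limma voom, 153 in the 14 libraries, 0 with the mitochondrial share, the pan-leukocyte level or the splines, and 0 to 3 with single libraries left out. For all of these the cause was not tested. Of 94 named genes 66 reversed under no alternative, which for genes chosen by p follows in part from the choice. Differences that changed sign were, with limma voom, Alas2 0.068, Pecam1 0.068, Nr1d2 -0.19, Vegfa -0.087, Csf1 -0.059 and Hmmr 0.015. With the replicate block they were H2-DMa -0.28, Acta1 -1.50, Epcam -0.29, Vim -0.13, Adgre1 -0.23, Vegfa -0.42, Igtp -0.12 and Irf1 -0.20, and in the 14 libraries H2-DMa -0.067, Spp1 -0.015, Epcam -0.50, Vim -0.14, Vegfa -0.37 and Irf1 -0.16. Without the sedentary TME libraries 4 and 6 they were Plvap 0.077, Hba-a1 0.27, Alas2 0.094 and Pecam1 0.52, and with the mitochondrial share as covariate Krt18 0.050 and Pecam1 0.24. Alternatives chosen after seeing the data gave, without the exercised TME libraries 8 and 9, Itgal -0.077, F13a1 -0.25, Cd68 -0.040, Mrgprb1 -0.16, H2-DMa -0.36, Cd86 -0.12, Itgae -0.41, Itgax -0.31, Epcam -0.35, Krt18 0.38, Ptprc -0.25, Adgre1 -1.31 and Ifngr1 -0.052, with the pan-leukocyte level as covariate Adgre1 -0.27, and with the splines Vim -0.021 and Nr1d2 -0.058. With single libraries left out the ranges of genes that changed sign were Vegfa -0.21 to 0.21, Epcam -0.27 to 0.58, Vim -0.043 to 0.14, Krt18 -0.19 to 0.17, Nr1d2 -0.29 to 0.23, Irf1 -0.039 to 0.23, Plvap -1.24 to 0.014, Pecam1 -0.77 to 0.37, Fasn -0.26 to 0.0057, Hmmr -0.24 to 0.12, Spp1 -0.021 to 0.18 and Mki67 -0.18 to 0.085. Genes under 1 CPM rest on few reads, and their fitted differences are imprecise.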

Other observations

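Other immune lists had median differences above 0 with all libraries. They were chemokines (0.60, 15 of 23 above 0, and -0.20 without the exercised TME libraries 8 and 9), checkpoint ligands and receptors (0.53, 16 of 18 above 0, and -0.06 without the exercised TME libraries 8 and 9), type I interferon-stimulated genes (0.40, 19 of 24 above 0, and -0.09 without the exercised TME libraries 8 and 9) and complement (0.36, 13 of 16 above 0, and 0.05 without the exercised TME libraries 8 and 9). T cell genes had a median of 0.36, and -0.91 without those libraries. NK and cytotoxic genes had 0.06, and -1.31 without them. Over all genes tested 51.7% lay above 0.

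Lists of metabolism and stress had medians closer to 0. Hypoxia and glycolysis genes had 0.06, circadian clock genes 0.08, nuclear-encoded respiratory chain genes -0.08, cytosolic ribosomal proteins -0.07 and proteasome subunits -0.14. In the circadian list 4 members had an unadjusted p under 0.05 on the lower side in TME cells and 4 in cancer cells, of 20, where 4.79% and 3.55% of all genes did, and 0 for the difference. Collagens and matrix genes had -0.08, and 0.14 without the exercised TME libraries 8 and 9.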
